A study of Homo sapiens with 2 samples.

Results

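The T-cell receptor loci were examined in the peaks of an anti-HA pulldown of tagged ETV6 from Reh cells. Reh is an established human cell line from a pre-B acute lymphoblastic leukaemia that carries the t(12;21) translocation. ETV6 is a repressor of the ETS family of transcription factors. The cells carried pCCL ETV6-HA, a vector for HA-tagged ETV6, and a second line carried pCCL ETV6 without the tag as the negative control. Cells of each line were transduced with 200 ng of virus and 8 µg/mL polybrene and were kept for 2 weeks. Both lines went through the anti-HA pulldown, which the design text describes as done in triplicate, while the sample titles call each library a pool. The 1 peak list used here, in build hg19, is that of the tagged cells. A single list gives no replicate spread, and it was set against no control list here, so the results are counts with their counting error and no test between samples was run. Members were the peaks whose summit lay in 1 of 3 loci, or within 500 kb on either side. The loci were TRA and TRD at chr14:22090057-23021075, TRB at chr7:141998851-142510972 and TRG at chr7:38279625-38407656. Of the 315787 peaks of the list, 614 were members. The TRA and TRD locus held 167 with 143 in its flanks, TRB held 54 with 138, and TRG held 1 with 111.

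T-cell receptor genes are assembled in developing lymphocytes by V(D)J recombination, in which the RAG recombinase joins a variable (V) segment, in some loci a diversity (D) segment, and a joining (J) segment ahead of a constant (C) gene. TRA and TRB encode the chains of the common alpha-beta receptor and TRG and TRD those of the gamma-delta receptor, with TRD lying inside TRA. B-lineage cells do not make these receptors, although precursor-B leukaemias often carry rearranged T-cell receptor genes. The rearrangements of these Reh cells were not tested.

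The order of the segments was taken from RefSeq for GRCh38.p14, whose coordinates were not used. TRA and TRD had 57 V entries there, of which 56 preceded the D segments and 1, TRDV3, followed them. The 3 D, 65 J and 2 C entries came last, and DAD1 was the next coding gene. TRB had 61 V entries, 60 of them before the 2 D, 14 J and 2 C entries, with TRBV30 after them. The trypsinogen genes PRSS1 and PRSS2 lay within TRB, and PRSS58 and EPHB6 beside it. In TRG, which is read towards lower coordinates, the 5 J and 2 C entries had the lowest coordinates and the 14 V entries followed, with STARD3NL and AMPH as neighbours. Each locus was divided at a round distance from the end that holds its C genes, 120 kb for TRA and TRD, 30 kb for TRB and 50 kb for TRG. The end piece is called the D-J-C part and the rest the variable part. No hg19 annotation was used, so these borders are approximate, and no peak was assigned to a segment.

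A peak's height is given as the pileup, the number of reads over its summit, recovered from the deposited fold and p-value. The lowest pileup in the list was 12 reads. Of all peaks, 302553 shared a background of 4.29 reads, the lowest in the list, and at that level 1 read changed the fold by 0.189. Ranges in parentheses after a density, ratio or share are exact 95% intervals. They cover the error of counting peaks and nothing else.

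The TRA and TRD locus was dense with peaks over its variable part and nearly bare over much of its D-J-C part. The variable part held 162 peaks in 811 kb, or 199.7 per Mb (170.2 to 233). The flanks together had 143 per Mb (120.5 to 168.5), a ratio of 1.40 (1.11 to 1.76). The rest of chromosome 14 had 121 per Mb, a ratio of 1.65 (1.40 to 1.93). The flanks were unequal, with 108 per Mb (81.1 to 140.9) on the side of OR10G3 and 178 per Mb (143 to 219) on the side of DAD1, a ratio of 0.607 (0.425 to 0.860). Against the DAD1 side alone the ratio of the variable part was 1.12 (0.861 to 1.47), and against flanks of 1 Mb it was 1.09 (0.902 to 1.32). The higher density of the variable part against its surroundings therefore depended on the flank chosen. Over the whole locus the ratio was 1.25 (0.997 to 1.58), and 0.980 against flanks of 1 Mb.

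**Figure D1:**
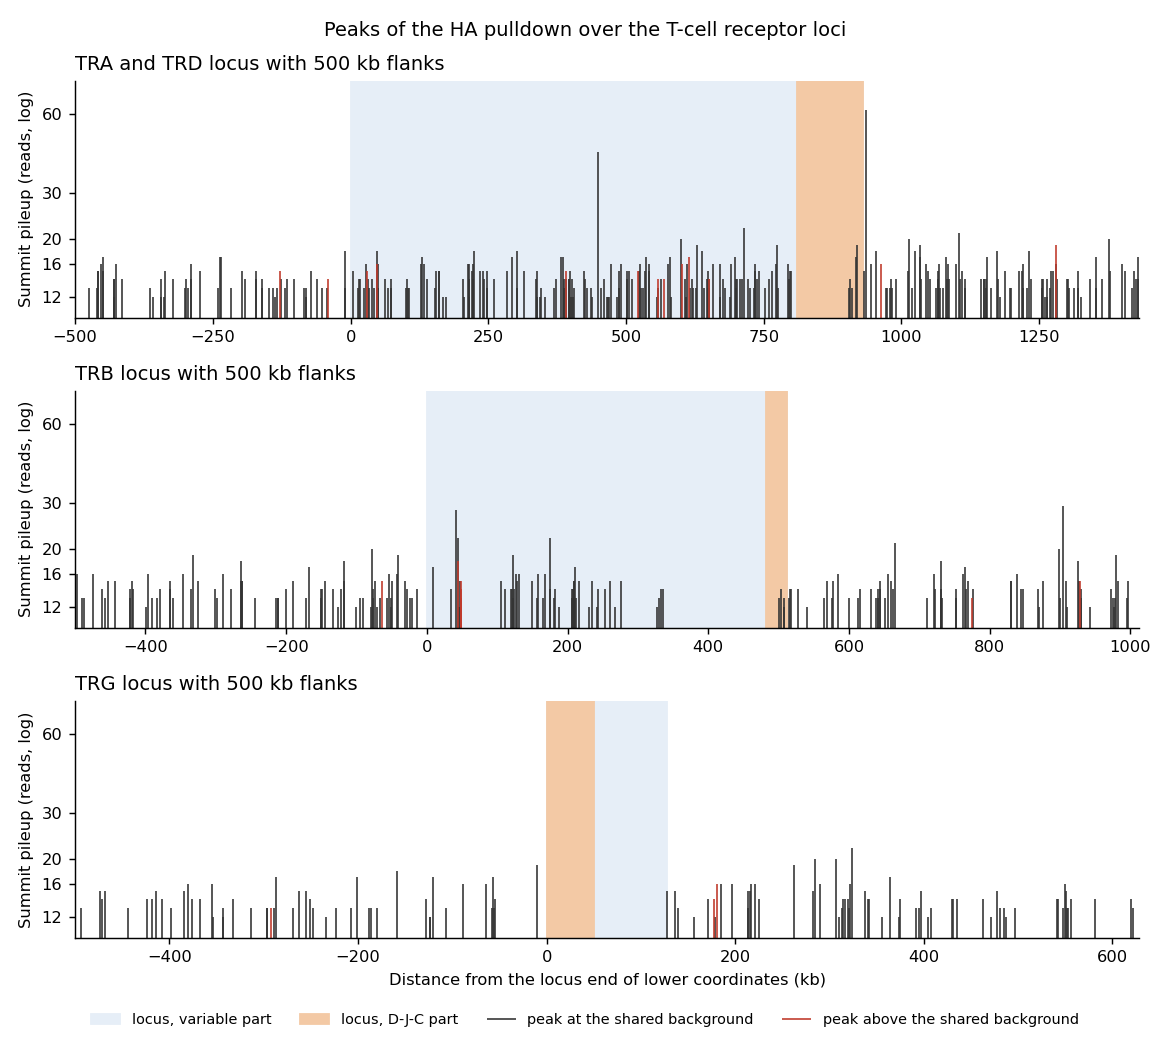
Summit pileup of every peak (reads, log axis) against the distance in kb from the end of each locus with lower coordinates, for the 3 loci and their 500 kb flanks. Each line is 1 peak, red where its background was above the shared 4.29 reads, blue shading marks the variable part and orange the D-J-C part. Peaks are missing over most of the D-J-C part of TRA and TRD, a long piece of TRB and all but 1 end of TRG.

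Along the TRA and TRD variable part peaks were spread without a gap of the size seen at its end. In consecutive 100 kb pieces from the end of lower coordinates, the counts were 19, 14, 18, 21, 19, 21, 29 and 20. The ninth piece held 1 peak and the remaining 31 kb held 5. The most crowded piece, 600 to 700 kb from the start, therefore came shortly before the emptiest. Neighbouring summits were 2.85 kb apart in the median in the variable part, against 4.33 kb in the flanks. Of 81 bins of 10 kb in the variable part, 12 had no peak (14.8%, 7.90 to 24.4), against 27 of 100 in the flanks (27.0%, 18.6 to 36.8). Over the autosomes, 40.2% of such bins had none, leaving out stretches of 500 kb or more without peaks.

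The D-J-C part of TRA and TRD, which holds the delta D, J and C genes and the alpha J and C genes, had 5 peaks in 120 kb, or 41.7 per Mb (13.5 to 97.2). Its density was 0.291 (0.0932 to 0.696) of that in the flanks and 0.209 (0.0668 to 0.497) of that in the variable part. With an end piece of 80 kb the ratio to the flanks was 0.437 (0.14 to 1.04), and among peaks with q of at most 0.01 it was 0.538 (0.0623 to 2.11), intervals that take in 1. The 5 peaks lay between summits 22995295 and 23009977, in the last 31 kb piece of the locus, where the final alpha J segments and the alpha C gene are expected from the order of segments. Their pileups were 13, 14, 13, 17 and 19 reads. Before them, 105 kb without a summit ran from 22890075 to 22995295, and 94.2 kb of it, 78.5% of the D-J-C part, lay inside that part. The next longest stretch in the locus was 31.1 kb.

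The tallest peak of all members stood just beyond the end of the TRA and TRD locus that holds its C genes. At chr14:23025138-23025597, 4.28 kb past the end of the locus, the pileup reached 62 reads over a width of 460 bp, with a fold of 11.9 and −log10 q of 44.4. It ranked 235th of the whole list by q. Of the other 88 peaks in that flank, 1 lay nearer to the locus, with 15 reads, and the second strongest, at chr14:23195083-23195388, had 21 reads. The TRA enhancer is known to lie a short way beyond the alpha constant gene and to bind ETS and RUNX family proteins. Whether this peak overlaps it was not tested, as no hg19 annotation was used.

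Inside the locus the tallest peak was at chr14:22539288-22539603, in the variable part 449 kb from the start, with 43 reads, a fold of 8.32 and rank 494. The next were chr14:22803290-22803465 with 22 reads and chr14:22690254-22690432 with 20. These 3 were the only peaks of the locus with at least 20 reads. On the OR10G3 side no peak reached 20, and the strongest, at chr14:22080783-22080953, had 18 reads. It was also the peak nearest to the locus, 9.21 kb before it. A pileup of 17 came next, shared by 3 peaks, of which chr14:21640270-21640420 has the lowest coordinates.

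TRB had a lower density than its flanks by value, with intervals that met. The locus held 54 peaks in 512 kb, or 105 per Mb (79.2 to 137.6), against 138 per Mb (115.9 to 163) in the flanks, a ratio of 0.764 (0.547 to 1.05). The rest of chromosome 7 had 99.4 per Mb. The flanks were alike in value, with 144 per Mb beside PRSS58 and 132 beside EPHB6, a ratio of 1.09 (0.770 to 1.55). Of 51 bins of 10 kb in the locus, 29 had no peak (56.9%, 42.2 to 70.7), against 28 of 100 in the flanks (28.0%, 19.5 to 37.9). Peaks were therefore packed into less of the locus than of the flanks.

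TRB had 3 stretches of at least 50 kb without a summit. The longest, 166 kb between summits 142334110 and 142499840, took up 32.4% of the locus. It covered the end of the variable part and 18.9 kb, or 62.9%, of the D-J-C part. The shorter ones measured 56.1 kb, from 142048017 to 142104113, and 51.3 kb, from 142275235 to 142326502. The hg19 assembly is known to leave pieces of TRB unsequenced. No table of such pieces was used here, and whether these stretches are among them was not tested. Leaving these shorter stretches out of the length, a choice made after they were seen, gave a ratio to the flanks of 0.967 (0.692 to 1.33). Leaving out every stretch of 50 kb or more from locus and flanks alike gave 225.9 per Mb (169.7 to 294.8) in the 239 kb left of the locus and 146 per Mb (122.5 to 172.2) in the flanks, a ratio of 1.55 (1.11 to 2.14). Because the stretches were picked for holding no peak, leaving them out can only raise a density, and they make up more of the locus than of the flanks. These values therefore describe the rest of TRB and are no test of its density.

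**Figure D2:**
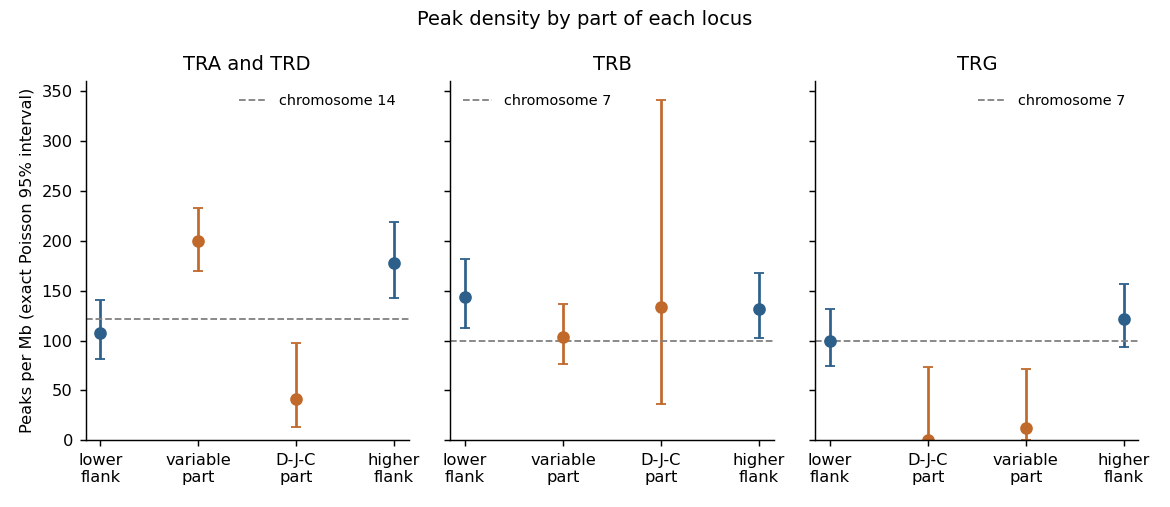
Peaks per Mb with exact Poisson 95% intervals in the variable and D-J-C parts of each locus (orange) and in each 500 kb flank (blue), with the density of the chromosome as a dashed line. The D-J-C part of TRA and TRD, at 41.7 per Mb, and both parts of TRG, at 12.8 and 0, are the lowest, and the variable part of TRA and TRD is the highest of the variable parts.

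Peaks in TRB were most numerous in the second and the third piece of 100 kb. Consecutive 100 kb pieces held 10, 20, 16, 4 and 0 peaks, and the last 12 kb held 4. The variable part as a whole had 50 peaks, or 104 per Mb (77.0 to 136.7). The D-J-C part had 4 peaks, or 133 per Mb (36.3 to 341.4), an interval too wide to set it apart from the variable part (ratio 1.29, 0.337 to 3.50). All 4 lay within the last 12 kb of the locus, with pileups of 13, 14, 13 and 12 reads, near the floor of the list. With an end piece of 60 kb, the same 4 peaks gave a ratio to the flanks of 0.483 (0.130 to 1.26).

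The tallest TRB peaks sat together near the start of the locus. The peak at chr7:142040124-142040331 had 28 reads, a fold of 5.49 and rank 1362, and that at chr7:142043410-142043595 had 22 reads. Both belonged to a run of 8 peaks within 7.82 kb that ended at the edge of the 56.1 kb stretch. In this run the background exceeded the shared level under 4 peaks, at 4.53 to 7.99 reads, and it did so under 0 of the other 46 peaks of TRB. The highest of these backgrounds was under chr7:142042858-142043021, where 18 reads gave a fold of 2.11. Which library this background was counted in is not stated, and its part in this run was not tested. Elsewhere in the locus chr7:142174309-142174569 had 22 reads. The strongest peaks of the flanks were chr7:142903095-142903355 with 29 reads and chr7:142664199-142664414 with 21 on the EPHB6 side. On the PRSS58 side the strongest was chr7:141920225-141920545 with 20 reads, followed by chr7:141665767-141665915 and chr7:141957192-141957325, tied at 19.

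TRG was almost without peaks. Its 128 kb held 1 peak, or 7.81 per Mb (0.198 to 43.5), while the flanks had 100 per Mb (74.2 to 131.8) on the side of STARD3NL and 122 per Mb (93.3 to 156.7) on the side of AMPH. The ratio to both flanks was 0.0704 (0.00177 to 0.400). Among peaks with q of at most 0.01 TRG held 0, with an upper limit of 1.43 for the ratio, so a low density could not be told at that threshold. In the whole list the rest of chromosome 7 had 99.5 per Mb. The single peak, at chr7:38406862-38406984, had 15 reads and a fold of 3.03, and lay 0.745 kb from the end of the locus where the first V gene is expected. The D-J-C part had 0 peaks in 50 kb, which allows up to 73.8 per Mb. Cutting the autosomes outside stretches of 500 kb or more into bins of the length of TRG, 515 of 20746 bins, or 2.48%, had at most 1 peak. The median bin had 12.

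The emptiness of TRG began outside the locus on the side of the constant genes. No summit was listed from 38268935 to 38406911, which is 138 kb and takes in 10.7 kb of the flank. The peak at the outer edge of this stretch, chr7:38268896-38269036, was at once the nearest to the locus and the strongest of its flank, with 19 reads and a fold of 3.78. The next in that flank, chr7:38120825-38120972, had 18 reads. On the side of AMPH peaks resumed 8.15 kb from the locus with 15 reads, and the strongest was chr7:38603850-38604011 with 22 reads. Next came chr7:38564466-38564624 and chr7:38586470-38586698, tied at 20.

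**Figure D3:**
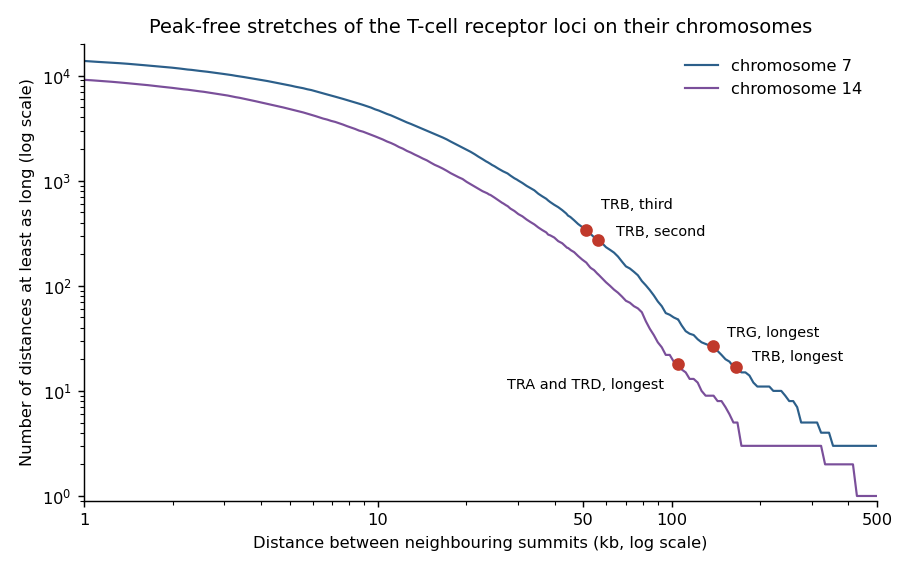
Number of distances between neighbouring summits at least as long as the value on the x axis (kb), for chromosomes 7 and 14, both axes logarithmic. Red points mark the longest stretch of each locus, 105, 166 and 138 kb, and the next longest of TRB, each placed on the curve of its own chromosome.

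The longest stretch of each locus was in the tail of its chromosome's distances, though not at the extreme. On chromosome 14, 17 of 10753 distances were longer than that of TRA and TRD. On chromosome 7, 16 of 15820 were longer than that of TRB and 26 longer than that of TRG. Of the autosomal distances under 500 kb, 831 of 315403, or 0.263%, measured at least 100 kb, and the median of all autosomal distances was 4.18 kb. Such stretches covered 4.57% of the autosomes. In the 3 loci together they covered 398 of 1571 kb, or 25.3%, with 1 stretch in each locus. In the 3000 kb of flanks they covered 10.7 kb, all of it the overhang of the TRG stretch. In the flanks, the longest stretches other than this overhang measured from 27.6 kb beside DAD1 to 53.2 kb beside EPHB6. Each of the 3 long stretches took in part or all of a D-J-C part, which they covered by 78.5% in TRA and TRD, 62.9% in TRB and 100% in TRG. Of the stretches themselves, 94.2 of 105 kb lay in that part in TRA and TRD, 18.9 of 166 kb in TRB and 50 of 138 kb in TRG. The borders of these parts are approximate and were chosen with earlier results known. The TRB D-J-C part was not low in density, with 133 peaks per Mb and a ratio to its flanks of 0.966 (0.260 to 2.53). A peak list gives no read depth between peaks, so how many reads fell in these stretches cannot be read from it.

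**Figure D4:**
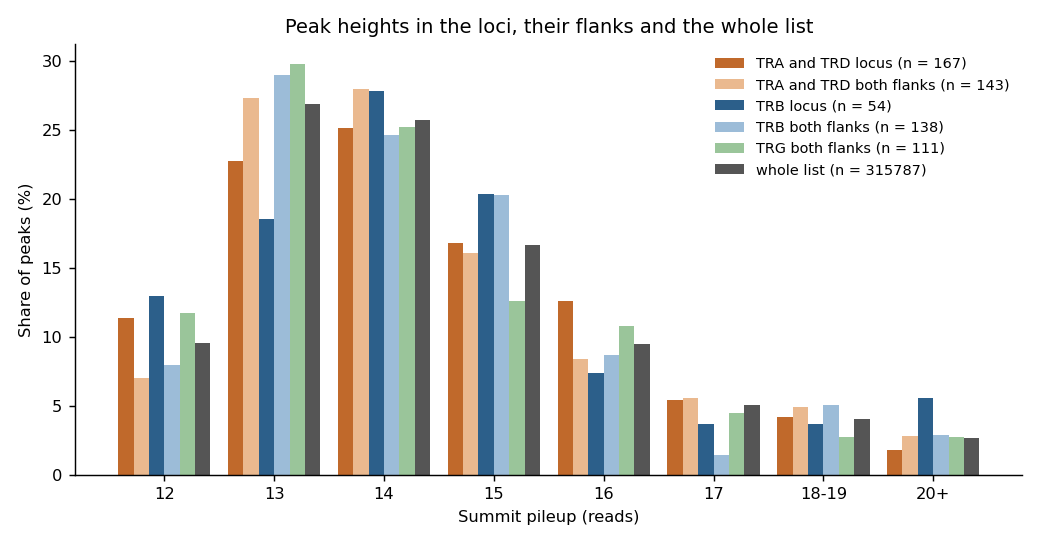
Share of peaks (%) at each summit pileup in reads for the TRA and TRD and TRB loci, the flanks of all 3 loci and the whole list, with the number of peaks in the key. All groups are fullest at 13 to 15 reads, and few peaks in any group reach 20.

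Where peaks were present, their heights were like those of the list. The median pileup was 14 reads in the TRA and TRD locus, in TRB, in the flanks of each of the 3 loci and in the whole list. In TRA and TRD, 40 of 167 peaks had 16 reads or more (24.0%, 17.7 to 31.2), as did 31 of 143 in its flanks (21.7%, 15.2 to 29.3). In TRB the counts were 11 of 54 (20.4%, 10.6 to 33.5) and 25 of 138 (18.1%, 12.1 to 25.6), and in the TRG flanks 23 of 111 (20.7%, 13.6 to 29.4). The share over all peaks of the list was 21.2%, inside each of these intervals. At least 20 reads were reached by 17 of the 614 members (2.77%, 1.62 to 4.4), against 2.66% of the list. A member count near the share of the list is no result about these loci.

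On the OR10G3 side of TRA and TRD 7 of 54 peaks reached 16 reads (13%, 5.37 to 24.9), and on the DAD1 side 24 of 89 did (27.0%, 18.1 to 37.4), with intervals that overlapped and that both held the 21.2% of the list. Median width was 103 bp in the TRA and TRD locus, 97 bp in TRB and 98 bp over all members.

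The background under peaks was above the shared level for 9 of 167 peaks in TRA and TRD (5.39%, 2.49 to 9.98) and for 4 of 54 in TRB (7.41%, 2.06 to 17.9). The flanks had 4 of 143, 3 of 138 and 3 of 111, and the list as a whole 4.19%. All 9 in TRA and TRD lay in the variable part, where they had backgrounds of 4.7 to 5.64 reads and pileups of 14 to 17 reads. That part held 162 of the 167 peaks, so this placement is no result about it. No peak of a D-J-C part had a background above the shared level, out of 9 such peaks. These are too few to be told from the share of the list.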

How the data were processed

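The submitters' processing notes name build hg19 and the tools MACS2 (2.1.1.20160309) and Bowtie2 (2.2.3). The settings and the control used for peak calling are not stated there. Cells received 200 ng of virus with 8 µg/mL polybrene and were kept for 2 weeks, per the labels' protocols. The authors deposited 1 peak list. Its deposited fold column was read as a linear ratio of summit pileup to background, and its deposited −log10 columns as −log10 p and −log10 q, with q up to 0.1. The deposited score column and other positions describe the same peaks, and the score was not used.

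The pileup was solved from fold = (pileup + 1)/(background + 1) and the Poisson upper tail, and was whole within 0.05 for 99.9997% of peaks. The solving step was tested on simulated data made with the same formula. That test covers the arithmetic and cannot show that the deposited columns follow the formula. A background within 0.005 of 4.29 reads counts as shared. Intervals are exact Poisson for counts, Clopper-Pearson for shares, and the conditional form for ratios of densities. Peaks named by position are the 3 strongest of each locus and the 2 strongest of each flank by −log10 q (ties by lower position), and stretches are the longest of each locus and flank. The shorter TRB stretches, the TRB run and other peaks given by position or pileup were chosen after their values were seen. Members and divisions were chosen with earlier results of these data known. Gene names and order came from a RefSeq table of build GRCh38.p14, with no coordinates. No hg19 sequence was used, and none is printed. Software was scipy 1.17.1, numpy 2.4.6 and pandas 2.3.3 under Python 3.11.15, with matplotlib 3.10.9 for plots.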

Additional observations from a re-analysis of the deposited data

How the results depend on the processing

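Of 166 recomputed values of 28 results, 123 stayed within the interval of the reported value (for stretches, within 1.5 times, and for median pileups, within 1 read), 43 moved and 0 turned a ratio whose interval excluded 1. The 6 recomputed values without long stretches were chosen after seeing the data. With flanks of 1 Mb the ratio to the flanks was 0.980 for the TRA and TRD locus and 1.09 for its variable part, and against the lower flank alone 1.66 and 1.85. Without stretches of 50 kb or more it was 1.55 for TRB and 1.505 for its variable part. The causes of the shifts with the choice of flank were not tested. For TRB, leaving out length without peaks can only raise a density, and 273.1 kb were left out of the locus against 53.2 kb of its flanks. At q of at most 0.01, which keeps fewer peaks by construction, the ratio was 0 for the D-J-C part of TRB (upper limit 5.3), for TRG (1.43), for its variable part (2.34) and for its D-J-C part (3.65). For TRA and TRD it was 0.538 (0.0623 to 2.11) in the D-J-C part and 1.47 (0.888 to 2.45) in the variable part. All these intervals take in 1, so this threshold left none of the density differences from the flanks beyond counting error. The interval for the TRA and TRD variable part also took in 1 with flanks of 250 kb (1.31, 0.995 to 1.75). At q of at most 0.01 the longest stretch of TRB was 301.8 kb. At the shared background, the lowest in the list, 15 reads gave a −log10 q of 1.94 and 16 reads gave 2.32. This threshold therefore keeps no peak below 16 reads, which fixes the next values in advance. They are no result about the loci, although they are counted among those that moved. Median pileups at that threshold were 16 and 17 reads in TRA and TRD and its flanks, 17 and 17 in TRB and its flanks, and 16.5 in the TRG flanks. The share with at least 16 reads was 100% in each. In the same order, that share was 40.7%, 37.8%, 40.7%, 38.4% and 33.3% for a limit of 15 reads, and 1.80%, 2.80%, 5.56%, 2.90% and 2.70% for 20 reads. A lower limit cannot lower this share and a higher one cannot raise it, so these moves are no result about the loci either. Bins without a peak at q of at most 0.01 made up 68.8% and 73.0% in TRA and TRD and its flanks, 84.3% and 76.0% in TRB and its flanks, and 79.0% in the TRG flanks. With 5 kb bins the shares were 41.9% in TRA and TRD and 53.0%, 53.5% and 60% in the flanks of TRA and TRD, TRB and TRG, and with 20 kb bins 13%, 8.0%, 8.0% and 10.0%. The size of the bins sets the level of these shares, so a move with bin size is likewise no result about the loci. The TRB locus had 67.7% with 5 kb bins and 48.0% with 20 kb bins, above its flanks in both. With 20 kb bins TRA and TRD (4.94 to 26.3) was above its flanks (2.22 to 19.2) by value. With 10 kb bins it was below them, at 23.7% against 27.0%. The depth of the list, 12 reads at the least, limits what counts as empty. With a single pooled list, leaving out replicates was not possible. No paired analysis was possible because each group has 1 pooled library and only the tagged one has a list.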
